A study of Mus musculus with 40 samples.

Results

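Arntl, Npas2, Clock, Cry1 and Nfil3 are genes of the circadian clock, and their transcripts were measured in 40 single mouse livers on 2-colour arrays. They were chosen by symbol in the probe-to-gene table, which gave 1 probe for each, 5 of 23574 probes and 5 of 10842 named genes. The donors, all of the inbred strain C57BL/6J, formed 8 groups of 5: ovariectomized females with a pellet of dihydrotestosterone (DHT), estradiol or placebo, intact females, castrated males with a pellet of DHT, estradiol or placebo, and intact males. Surgery took place at the age of 8 weeks and pellet implantation at 12 weeks. All mice ate chow (4% fat) and died at 14 weeks, when they had been fasted for 12 hours. The DHT pellet (5 mg, 21 days) was rated for 1 to 2 ng/ml in plasma and the estradiol pellet (0.5 mg) for 300 pg/ml. DHT is an androgen that aromatase cannot turn into an estrogen. Intact mice had no surgery in the labels, which do not say whether they carried a pellet, so a comparison with them spans surgery as well as hormone. The labels give no hour of death either, and the part that the hour had in any difference below was not tested.

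The circadian clock is a loop of transcription factors that runs in nearly every cell, liver cells included. The Arntl protein, also called BMAL1, pairs with CLOCK or with NPAS2, binds E-boxes (CACGTG) and switches on the Per, Cry, Nr1d1 and Dbp genes. The PER and CRY proteins then block that pair, and the nuclear receptors NR1D1 and NR1D2 repress Arntl and other genes through ROR elements. NFIL3, a basic leucine zipper repressor, competes at D-boxes with the activator DBP. In liver this loop times genes of glucose, lipid, heme and drug metabolism. Arntl, Clock and Npas2 are therefore activators, while Cry1 and Nfil3 encode repressors, so the name activator arm covers only part of the set. In mouse liver, transcripts of Arntl, Npas2 and Nfil3 are known to peak at another phase of the day than those of Nr1d1, Dbp and the Per genes.

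Promoter sequences from RefSeq (build GRCm38.p6) covered all 5 genes, with windows from 250 bases before to 50 bases after an annotated start, and the windows with a match are shown because their motifs differ between members. Arntl lies on chromosome 7 and its window is chr7:113207261-113207560 on the plus strand. Nfil3 lies on chromosome 13 and its window is chr13:52980990-52981289 on the minus strand. Cry1 lies on chromosome 10 and its window is chr10:85185005-85185304 on the minus strand. Capitals mark the core of a ROR element (TAGGTCA, read on either strand) in Arntl and Nfil3 and the E-box in Cry1.
Arntl: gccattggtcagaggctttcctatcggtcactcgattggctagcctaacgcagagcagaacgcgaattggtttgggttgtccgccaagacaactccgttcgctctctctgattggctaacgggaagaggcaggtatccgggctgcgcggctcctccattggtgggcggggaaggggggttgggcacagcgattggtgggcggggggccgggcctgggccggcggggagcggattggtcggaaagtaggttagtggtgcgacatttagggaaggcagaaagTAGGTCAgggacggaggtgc
Nfil3: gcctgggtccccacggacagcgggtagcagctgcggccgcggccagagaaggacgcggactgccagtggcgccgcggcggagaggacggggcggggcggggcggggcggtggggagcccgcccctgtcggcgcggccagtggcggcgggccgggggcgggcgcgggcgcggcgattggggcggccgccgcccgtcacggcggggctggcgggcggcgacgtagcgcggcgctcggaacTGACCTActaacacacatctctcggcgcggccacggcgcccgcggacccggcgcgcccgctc
Cry1: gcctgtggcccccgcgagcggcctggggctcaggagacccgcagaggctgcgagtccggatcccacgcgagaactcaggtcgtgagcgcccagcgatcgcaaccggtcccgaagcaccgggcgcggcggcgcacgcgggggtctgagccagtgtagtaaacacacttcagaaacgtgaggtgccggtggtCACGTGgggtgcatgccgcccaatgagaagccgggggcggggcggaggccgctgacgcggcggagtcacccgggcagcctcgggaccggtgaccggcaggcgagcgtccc
The match began 31 bases after the start in Arntl, and in Nfil3 it lay on the other strand, 12 bases before the start. The E-box of Cry1 began 60 bases before the start. Both strands were searched for 5 motifs, and no matches overlapped in these windows. Of 32851 promoter windows in RefSeq, 2.61% held the ROR core TAGGTCA and 3.98% held its other form, TGGGTCA. The E-box was in 7.15% of windows, the D-box form TTATGTAA in 0.938% and the form TTACGTAA in 0.119%. The other Arntl window, the Npas2 window and the 3 Clock windows held none of these letters.

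Each value is a log2 ratio of a liver to a common pool of liver RNA from 40 mice, so 0 is the level of the pool and levels of different genes cannot be compared. Array medians ran from -0.0448 to 0.0363 and interquartile ranges from 0.129 to 0.34 on this scale, and each animal had 1 array. The Y-linked genes Eif2s3y and Kdm5d matched the sex label of every mouse. In whole liver, fewer cells of a type and less RNA per cell cannot be told apart. Since the pool is itself liver, the ratios cannot show whether liver cell markers are present. A difference passed the test at an adjusted p under 0.05 in limma.

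Arntl and Nfil3 differed among the 8 groups, and Npas2, Clock and Cry1 did not pass the test. That is 2 of 5 genes, where 17.2% of all probes passed. The group means of Arntl spanned 2.32 on the log2 scale, a 5.01-fold range, and the moderated F over the groups was 18.6 with an adjusted p of 6.88e-08. Those of Nfil3 spanned 1.04, a 2.05-fold range, with an F of 7.99 and an adjusted p of 0.000258. The adjusted p was 0.568 for Npas2, 0.442 for Clock and 0.464 for Cry1. Differences between groups made up 78.8% of the variance of Arntl over the 40 livers and 61.7% of that of Nfil3, against 21.4% for Npas2, 27.6% for Clock and 22.5% for Cry1. Within groups Arntl and Nfil3 also varied much: their residual SDs of 0.435 and 0.322 were above those of 98.0% and 94.0% of probes.

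**Figure D1:**
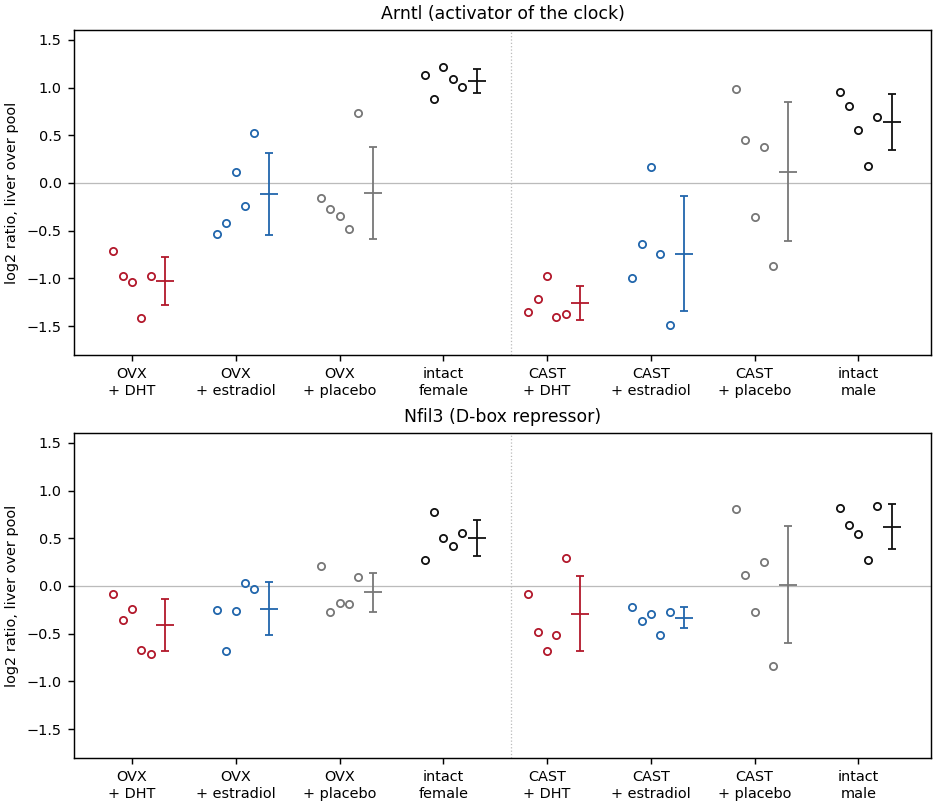
Log2 ratio to the pool (vertical axis) of Arntl (top) and Nfil3 (bottom) in each of the 40 livers, by group; open circles are livers, and the bar beside them is the group mean with its SD (n = 5). OVX is ovariectomized and CAST castrated. All 10 livers of the DHT groups lie below all 10 of intact mice for Arntl, while 1 DHT liver reaches the intact range for Nfil3.

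Arntl, which encodes the activator that pairs with CLOCK or NPAS2, was lowest in the DHT groups and highest in intact mice. In ovariectomized females with DHT it stood at -0.71, -0.98, -1.04, -1.42 and -0.98, and in castrated males with DHT at -1.35, -1.22, -0.97, -1.40 and -1.37. These 10 livers all lay below the pool and within a narrow band. With estradiol the values were -0.54, -0.42, 0.11, -0.24 and 0.52 in ovariectomized females and -1.0, -0.64, 0.17, -0.74 and -1.49 in castrated males. The estradiol groups straddled the pool, and the castrated males reached the range of the DHT groups. With placebo they were -0.16, -0.27, -0.35, -0.48 and 0.73 in ovariectomized females and 0.98, 0.45, -0.36, 0.38 and -0.87 in castrated males. The placebo groups spread widely, with 1 female liver far above its group and male livers both high and low. Intact females had 1.13, 0.88, 1.22, 1.09 and 1.01, and intact males 0.95, 0.81, 0.56, 0.18 and 0.69. All 10 intact livers lay above the pool, and 5 of the 30 gonadectomized livers lay above the lowest intact liver. The SD was smallest in intact females (0.13) and largest in castrated males with placebo (0.73).

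Against placebo, Arntl fell with DHT in castrated males. It averaged -1.26 ± 0.18 with DHT and 0.12 ± 0.73 with placebo (SD, n = 5 each), a difference of -1.38 ± 0.26 (SE) or 2.60-fold, with an adjusted p of 0.00162 and no overlap, a separation that 4.06% of probes showed. It was the only member that passed in that comparison, 1 of 5, where 3.47% of all probes passed. Of 3 erythroid markers 1 was higher with DHT, Alas2 by 1.29, and the mean of the 3 ran from -0.31 to 0.56 with DHT and from -0.70 to -0.17 with placebo. Of 5 endothelial markers 1 was lower with DHT, Tek at -0.23, and their mean ran from -0.14 to 0.07 with DHT and from 0.02 to 0.18 with placebo. The part of either in the Arntl difference was not tested. In ovariectomized females the means were -1.02 ± 0.26 with DHT and -0.11 ± 0.48 with placebo (SD, n = 5 each). That difference of -0.92 ± 0.26 (SE) did not pass, with an adjusted p of 0.0782, although the groups did not overlap, a separation that 4.5% of probes showed, and 1.15% of probes passed. It passed with array weights, at an adjusted p of 0.0185, and in a fit of these groups alone, at 0.0437. Those settings called 1298 and 545 of all probes, against 271 in the main fit. The DHT effect in females minus that in males was 0.46 ± 0.37 (SE), with an adjusted p of 0.845, so a difference between the sexes was not shown. Over all probes that interaction passed at 0 in limma, with 1790 at an unadjusted p under 0.05.

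With estradiol against placebo, Arntl passed the test in neither sex. In ovariectomized females the means were -0.11 ± 0.43 with estradiol and -0.11 ± 0.48 with placebo (SD, n = 5 each), a difference of -0.01 with a 95% interval of -0.54 to 0.52 and an adjusted p of 0.998; 0.632% of probes passed there. In castrated males they were -0.74 ± 0.60 with estradiol and 0.12 ± 0.73 with placebo (SD, n = 5 each), a difference of -0.86 ± 0.26 (SE) with an adjusted p of 0.108, where 1.18% of probes passed. The call depended on single livers and on the fit. Without the lowest placebo liver, animal 28, it was -1.10 with an adjusted p of 0.0232, without the highest estradiol liver, animal 44, it was -1.08 with 0.0322, and with array weights it was -1.10 with 0.0184. Those settings called 299, 202 and 753 of all probes in that order, against 278 in the main fit. The estradiol effect in females minus that in males was 0.85 ± 0.37 (SE), with an unadjusted p of 0.0291 and an adjusted p of 0.993. The estradiol interaction passed at 0 probes in limma, with 973 at an unadjusted p under 0.05.

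With the hormones set against each other, Arntl was higher with estradiol than with DHT in ovariectomized females, by 0.91 ± 0.26 (SE) or 1.88-fold, with an adjusted p of 0.0430 and no overlap, as in 3.51% of probes. It was 1 of 5 members to pass, where 3.79% of probes passed. The call was lost without any of 8 of the 10 livers, with adjusted p-values up to 0.173 without animal 37, and also with quantile normalization (0.0613) and in a fit of these groups alone (0.0504). Of 6 Kupffer cell and macrophage markers, 5 were higher with estradiol in the same comparison, among them Marco by 2.49 and Clec4f by 0.86. The mean of these 6 markers ran from -0.33 to 1.80 in ovariectomized females with estradiol and from -0.91 to -0.37 in those with DHT. The B cell marker Cd79b was also higher with estradiol, by 0.66, as 1 of 5 lymphocyte markers, whose mean ran from -0.07 to 0.41 with estradiol and from -0.22 to -0.01 with DHT. The erythroid marker Alas2 was lower, at -1.05, as 1 of 3. The erythroid markers Hba-a1 and Hbb-b1 went the other way, by 0.56 and 0.51, without passing. The erythroid mean ran from -0.69 to 0.55 with estradiol and from -0.44 to 0.09 with DHT. The part of these markers in the Arntl difference was not tested. In castrated males the difference between estradiol and DHT was 0.52 ± 0.26 (SE), with an adjusted p of 0.411, where 0.708% of probes passed.

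Against intact mice, Arntl fell in every group with a hormone pellet. It was lower by 2.09 ± 0.26 (SE) in ovariectomized females with DHT than in intact females, a 4.25-fold difference with an adjusted p of 3.6e-06. In castrated males with DHT it was 3.73-fold lower than in intact males, at -1.90 ± 0.26 (SE) and an adjusted p of 1.7e-05. With estradiol it was 2.26-fold lower in ovariectomized females (adjusted p = 0.0159) and 2.60-fold lower in castrated males (adjusted p = 0.000432), and the groups did not overlap in any of these 4 comparisons. In castrated males with estradiol the gap was narrow, with the highest liver at 0.17 against a lowest intact male at 0.18. Without animal 36, the adjusted p of ovariectomized females with estradiol against intact females was 0.0580. The comparisons within a sex share their intact livers. Ovariectomized females averaged -0.11 for Arntl with estradiol and also with placebo, so both groups stood about equally far below intact females. In each of the 4 comparisons 2 of 5 members passed, Arntl and Nfil3, both lower. The share of all probes that passed was 2.72% for ovariectomized females with DHT, 6.32% for castrated males with DHT, 1.89% for ovariectomized females with estradiol and 9.9% for castrated males with estradiol. The share with groups that did not overlap was 5.4%, 4.13%, 2.13% and 6.23% in that order.

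Markers of liver cell types passed in 2 of these 4 comparisons with intact mice. Alas2 was higher by 1.14 in ovariectomized females with DHT, as 1 of 3 erythroid markers, and Ttr, which encodes transthyretin, was lower at -0.64, as 1 of 4 hepatocyte markers. The erythroid markers Hba-a1 at -0.19 and Hbb-b1 at 0.05 did not pass there. The erythroid mean ran from -0.44 to 0.09 in these females and from -0.55 to -0.16 in intact females, and the hepatocyte mean from -0.30 to -0.01 and, in intact females, from 0.00 to 0.26. Against intact males, Alas2 stood at -1.28 in castrated males with estradiol, as 1 of 3 erythroid markers, while Hba-a1 at -0.09 and Hbb-b1 at 0.16 did not pass. The hepatocyte marker Serpina1a, an antitrypsin gene, stood at -0.29, as 1 of 4. The erythroid mean ran from -0.42 to 0.12 in these males and from -0.29 to 0.67 in intact males, and the hepatocyte mean from -0.22 to 0.05 and, in intact males, from -0.03 to 0.48. The part of these markers in the differences of Arntl and Nfil3 was not tested.

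Gonadectomy with placebo gave differences of Arntl that did not pass. Ovariectomized females with placebo stood 1.17 ± 0.26 (SE) on the log2 scale below intact females without overlap, a separation that 1.11% of probes showed. The unadjusted p was 8.28e-05 and the adjusted p 0.0958, in a comparison where 0.0339% of probes passed. Without animal 20, the high placebo liver, the difference was -1.38 with an adjusted p of 0.0148, and the call was also made with array weights (0.0395) and among the more variable probes alone (0.0436). Those settings called 23, 31 and 19 probes in that order, against 8 in the main fit. Castrated males with placebo differed from intact males by -0.52 ± 0.26 (SE), with an adjusted p of 0.203. Intact females and intact males differed by 0.43 ± 0.26 (SE), with an adjusted p of 0.354, where 8.69% of probes passed and 0 of 5 members did. Between ovariectomized females and castrated males 0 of 5 members passed with placebo, estradiol or DHT, where 0.0679%, 0.136% and 0.0806% of probes passed in limma. The difference of Arntl with estradiol was 0.62 ± 0.26 (SE), with an unadjusted p of 0.0233 and an adjusted p of 0.579.

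**Figure D2:**
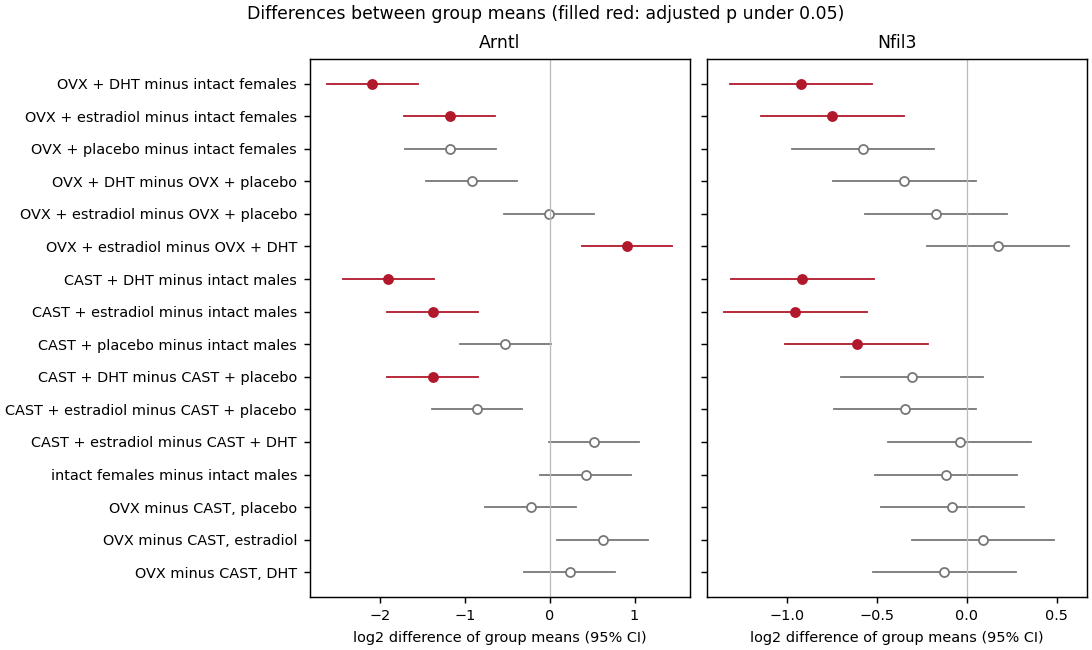
Log2 differences of group means (horizontal axis) with their 95% confidence intervals for Arntl (left) and Nfil3 (right) in 16 comparisons; filled red points passed the test and open grey points did not. Arntl passed in 6 comparisons and Nfil3 in 5, and the Arntl intervals against intact mice with DHT lie farthest from 0.

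Nfil3, the D-box repressor, was lower in gonadectomized than in intact mice in 5 comparisons and passed in no comparison of a hormone with placebo. With DHT it stood at -0.08, -0.36, -0.24, -0.67 and -0.71 in ovariectomized females and at -0.08, -0.48, -0.68, -0.51 and 0.29 in castrated males. With estradiol it was at -0.25, -0.68, -0.26, 0.03 and -0.03 in ovariectomized females and at -0.22, -0.37, -0.29, -0.51 and -0.27 in castrated males. Of these 20 livers, a castrated male on DHT and, barely, an ovariectomized female on estradiol lay above the pool. With placebo it was at 0.21, -0.27, -0.18, -0.19 and 0.09 in ovariectomized females and at 0.81, 0.11, -0.27, 0.25 and -0.84 in castrated males. Intact females had 0.27, 0.78, 0.50, 0.42 and 0.55, and intact males 0.82, 0.64, 0.54, 0.27 and 0.84. All 10 intact livers were above the pool, and 2 of 30 gonadectomized livers lay above the lowest of them. The castrated males with placebo held both the highest and the lowest gonadectomized liver, animals 24 and 28, which were also the highest and lowest of that group for Arntl.

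Nfil3 was lower by 0.95 ± 0.20 (SE) in castrated males with estradiol than in intact males, a 1.94-fold difference (adjusted p = 0.00102). With DHT the difference from intact mice was -0.91 ± 0.20 (SE) in castrated males (adjusted p = 0.00301) and -0.92 ± 0.20 (SE) in ovariectomized females (adjusted p = 0.00417). In castrated males with DHT the groups overlapped, and quantile normalization gave an adjusted p of 0.0646. Ovariectomized females with estradiol were lower than intact females by 0.75 ± 0.20 (SE), with an adjusted p of 0.0378. This call was lost without any of 8 of the 10 livers, with adjusted p-values up to 0.118 without animal 2, and in a fit of these groups alone (0.0602).

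After castration with placebo Nfil3 averaged 0.01 ± 0.61, against 0.62 ± 0.23 in intact males (SD, n = 5 each). It fell by 0.61 ± 0.20 (SE), with an adjusted p of 0.0338 and overlap of the groups, as 1 of 5 members where 12.1% of probes passed. The call was lost without any of 7 of the 10 livers, with a difference of -0.40 and an adjusted p of 0.140 without animal 28, with quantile normalization (0.309) and in a fit of these groups alone (0.183). The same comparison called 2 of 5 lymphocyte markers (T and B cells) higher, Cd2 by 0.62 and Cd3d by 0.24. The mean of the 5 ran from 0.09 to 0.22 in castrated males with placebo and from -0.25 to 0.01 in intact males. Also higher were 1 of 3 stellate cell markers, Reln by 0.43, and 1 of 5 endothelial markers, Tek by 0.20, while 1 of 3 erythroid markers, Alas2 at -1.41, and 1 of 4 hepatocyte markers, Serpina1a at -0.35, were lower. The list means ran from 0.04 to 0.24 after castration and from -0.22 to -0.12 in intact males for stellate cells, and from 0.02 to 0.18 and, in intact males, from -0.10 to 0.17 for endothelium. For erythroid markers they ran from -0.70 to -0.17 after castration and from -0.29 to 0.67 in intact males, and for hepatocytes from -0.17 to 0.21 and, in intact males, from -0.03 to 0.48. The part of these markers in the Nfil3 difference was not tested. In ovariectomized females with placebo the difference of -0.58 ± 0.20 (SE) from intact females had an unadjusted p of 0.00563 and an adjusted p of 0.569, without overlap. Of all probes, 1.11% showed such a separation there and 0.0339% passed. The gonadectomy effect on Nfil3 in females minus that in males was 0.04 ± 0.28 (SE), with a 95% interval of -0.52 to 0.60, where 4.4% of probes passed. Against placebo, DHT gave -0.35 ± 0.20 (SE) in females and -0.30 ± 0.20 in males and estradiol -0.17 ± 0.20 and -0.34 ± 0.20, and none of the 4 passed, with adjusted p-values between 0.444 and 0.904. Of the 15 interactions of the 5 members with sex, 0 passed in limma, 2 had an unadjusted p under 0.05, and the smallest adjusted p was 0.243.

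In the order of group means, no neighbours passed the test for Arntl or Nfil3. Neighbours were picked by sorting these same means, which selects small gaps, so this does not show that neighbouring groups are alike. For Arntl the order ran down through intact females (1.06), intact males (0.64), castrated males with placebo (0.12), ovariectomized females with placebo and with estradiol (both -0.11), castrated males with estradiol (-0.74), ovariectomized females with DHT (-1.02) and castrated males with DHT (-1.26). For Nfil3 it ran through intact males (0.62), intact females (0.51), castrated males with placebo (0.01), ovariectomized females with placebo (-0.07) and with estradiol (-0.24), castrated males with DHT (-0.29) and with estradiol (-0.33) and ovariectomized females with DHT (-0.41). Adjusted p-values between neighbours were 0.203 or more for Arntl and 0.661 or more for Nfil3, and all neighbouring groups overlapped. The smallest unadjusted p in limma was 0.0233 for Arntl, between ovariectomized females and castrated males with estradiol. For Nfil3 it was 0.0156, between intact females and castrated males with placebo.

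Clock and Npas2, which encode the alternative partners of the Arntl protein, and Cry1, which encodes a repressor of that pair, passed in 0 of 16 comparisons each. Over the 40 livers Clock ran from -0.15 to 0.16, Npas2 from -0.12 to 0.25 and Cry1 from -0.43 to 0.40 on the log2 scale. Their group means spanned 0.14 for Clock, 0.12 for Npas2 and 0.24 for Cry1. The 95% intervals of all 16 differences lay between -0.24 and 0.20 for Clock, between -0.25 and 0.17 for Npas2 and between -0.36 and 0.42 for Cry1. These intervals allow differences of up to 1.18-fold for Clock, 1.19-fold for Npas2 and 1.34-fold for Cry1, if the array ratios follow the RNA. Each had 1 comparison with an unadjusted p under 0.05.

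For Clock that comparison was ovariectomy. Its values were -0.11, -0.15, -0.03, -0.02 and -0.04 in ovariectomized females with placebo, against 0.15, 0.04, 0.08, 0.05 and 0.02 in intact females. All values of the operated females were below those of the intact ones, a separation that 1.11% of probes showed. The difference of -0.14 had an unadjusted p of 0.00787 and an adjusted p of 0.633. With array weights, which let the fit trust some arrays more than others, Clock passed in the gonadectomy interaction (adjusted p = 0.0256), in the DHT interaction (0.0385) and in the F over the groups (0.0410). With these weights 3007 and 762 of all probes passed in the gonadectomy and DHT interactions, against 1038 and 0 in the main fit. The residual SD of Clock was 0.0703, larger than that of only 3.04% of probes. That of Npas2 was 0.0925, larger than that of 13.5% of probes. The brightness of either probe over background is unknown.

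**Figure D3:**
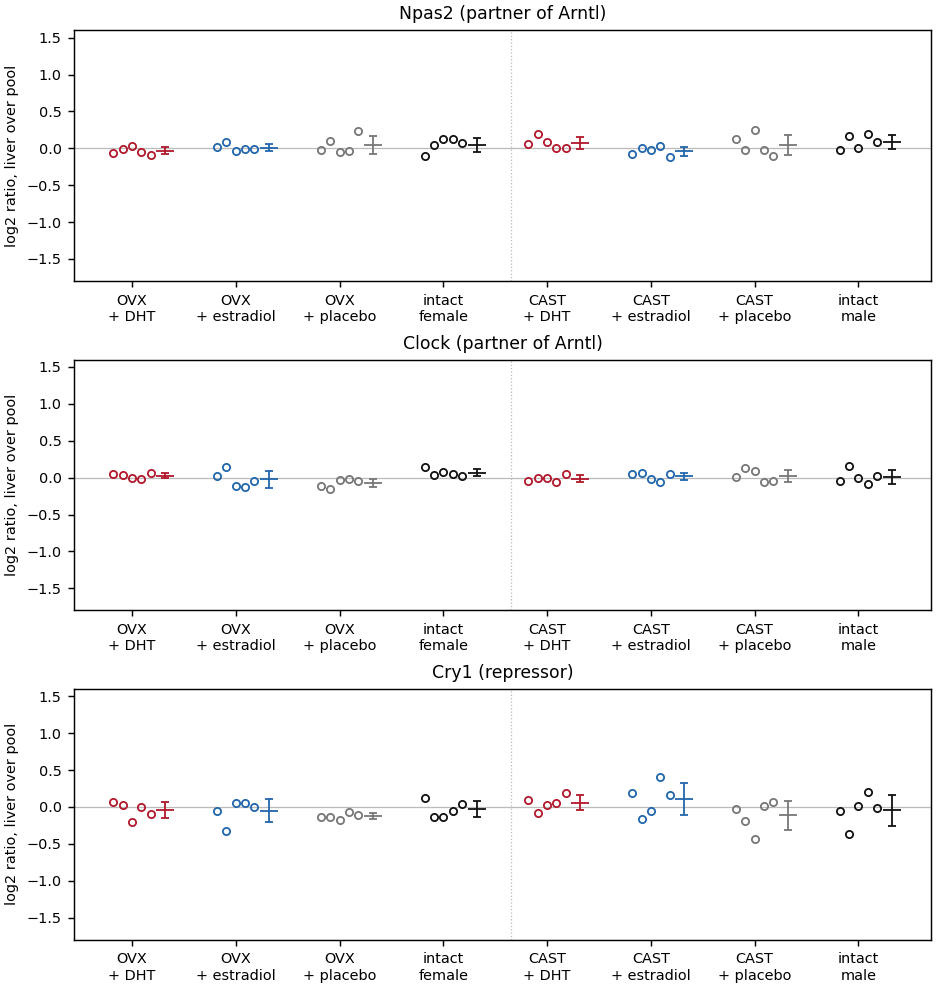
Log2 ratio to the pool (vertical axis, the same scale as for Arntl and Nfil3) of Npas2, Clock and Cry1 in each of the 40 livers, by group; open circles are livers and bars are group means with SD (n = 5). OVX is ovariectomized and CAST castrated. All livers lie between -0.43 and 0.40, and most groups span the level of the pool; ovariectomized females with placebo lie wholly below it for Clock and Cry1, and intact females wholly above it for Clock.

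Within groups, Arntl and Nfil3 tended to be high in the same livers. After subtraction of the group means, r was 0.53 over the 40 livers (permutation p = 0.00385, adjusted p = 0.0193 over 10 pairs), and 0.45 without the 2 livers farthest from the median of Arntl. Spearman's rho was 0.38 (permutation p = 0.0325), which did not pass after adjustment (0.108). The call was lost without animal 28 (r = 0.39, adjusted p = 0.108), 24 (0.42, 0.0537), 26 (0.51, 0.0567) or 34 (0.52, 0.0573), and also with quantile normalization (0.54, 0.0616). Clock and Cry1 went opposite ways, with r = -0.55 (permutation p = 0.00289, adjusted p = 0.0193), -0.38 without the 2 livers farthest from the median of Clock, and rho = -0.40 (adjusted p = 0.108). That call was lost without animal 9 (r = -0.46, adjusted p = 0.0831), 28 (-0.53, 0.0504) or 34 (-0.47, 0.0804), and also with quantile normalization (-0.38, 0.137) and on values without subtraction of the group means (-0.35, 0.0865). Npas2 and Cry1, at r = -0.40 (adjusted p = 0.0642), did not pass over all livers but did without animal 8, 11, 18 or 45. Between Arntl and its partners r was 0.22 for Npas2 (adjusted p = 0.766) and near 0 for Clock (adjusted p = 1.00).

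Among 12661 other named probes, the genes most like Arntl within groups were Dnmt3b, a DNA methyltransferase (r = 0.84), and Abtb2 (0.79), and the most opposite was the repressor Per2 (-0.83). Dnmt3b ranked highest and Per2 lowest of all these probes for Arntl, also on the values as measured. Next on the opposite side came Vnn1, a pantetheinase (-0.73), Slc26a4, an anion exchanger (-0.72), Aldh1a1, a retinal dehydrogenase (-0.71), and Ppara, the nuclear receptor of the fasting response (-0.70). The tight junction gene Cldn1 (0.69) and the insulin-like growth factor binding protein gene Igfbp1 (0.65) were among the 10 most alike. Nfil3 was most like Nedd4l, a ubiquitin ligase (0.72), and had Fgfrl1 (-0.65), Per2 (-0.58), the lipogenic regulator Srebf1 (-0.58) and Usp2 (-0.56) among the 10 most opposite. Nfil3 itself ranked 57 of 12661 for likeness to Arntl. These are descriptions over 40 livers on shared arrays and pool, with no test.

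**Figure D4:**
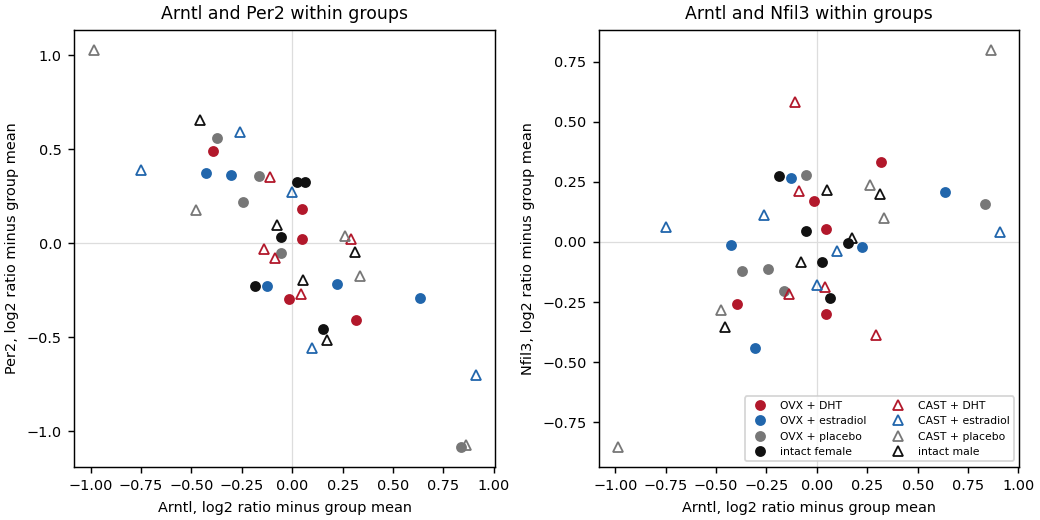
Arntl (horizontal axis) against Per2 (left, vertical axis) and Nfil3 (right, vertical axis), each as log2 ratio minus its group mean; each point is a liver, with shape and fill for sex and colour for treatment (OVX, ovariectomized; CAST, castrated). The livers fall along a line downward for Per2 (r = -0.83) and scatter more widely upward for Nfil3 (r = 0.53), with castrated males on placebo near both ends.

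Npas2 went with a pattern shared by many probes, and Cry1 went with it about as closely as the median probe. The leading principal component of all probes after subtraction of group means held 26.2% of the variance, and its absolute correlation was 0.83 with Npas2, 0.45 with Cry1, 0.25 with Clock, 0.15 with Nfil3 and 0.12 with Arntl, against a median of 0.44 over all probes. Npas2 had an absolute r over 0.5 with 36.8% of named probes, Cry1 with 14.9%, Clock with 3.8%, Arntl with 1.81% and Nfil3 with 0.434%. Cry1 went with the interquartile range of its array at r = -0.54 and Npas2 at 0.39, while Arntl stood at 0.02. The part of this array-wide pattern in the Clock and Cry1 relation was not tested.

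Of 15 genes of the clock's repressor and output arm, 13 were measured, and in the DHT groups those that passed were higher than in intact mice. Against intact mice, 5 of 13 were higher and 0 lower in ovariectomized females with DHT, where 1.55% of all probes were called higher, and the same counts held for castrated males with DHT, where 2.49% were. Their median difference was 0.34 in the females and 0.24 in the males, beside medians over all probes of -0.02 and 0.01. In ovariectomized females with DHT, Per2, a repressor of the Arntl pair, was higher by 1.91, Nr1d2 by 1.23, the E-box repressor gene Bhlhe40 by 1.15, the deubiquitinase gene Usp2 by 1.13 and Dbp by 0.32. A further probe of Nr1d2 was called in no comparison. In castrated males with DHT the differences were 1.77 for Per2, 1.28 for Bhlhe40, 1.23 for Usp2, 0.39 for Dbp and 0.24 for Tef, a relative of Dbp. The comparisons share no livers between the sexes.

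Per2 stood at 0.22, 0.81, 0.33, 1.12 and 0.65 in ovariectomized females with DHT, against -0.96, -1.51, -1.74, -0.96 and -1.25 in intact females. In castrated males with DHT it was at 0.61, 0.42, 0.71, 0.66 and 1.04, against -1.13, -1.60, -0.99, -0.43 and -1.28 in intact males. The DHT livers were all above the pool and the intact livers all below it, the reverse of Arntl. Castrated males with placebo had Per2 at -1.60, -0.70, -0.35, -0.49 and 0.50, in the order of animals given for Arntl. The liver with the most Arntl, animal 24, had the least Per2, and animal 28, with the least Arntl, had the most.

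Against placebo, Per2 rose by 1.22, Usp2 by 0.73 and Noct, a rhythmic output gene also called nocturnin, by 0.80 with DHT in castrated males, 3 of 13 where 1.91% of probes were called higher. In ovariectomized females Usp2 rose by 0.80 and Noct by 0.98 with DHT, 2 of 13 where 0.632% were. With estradiol in castrated males Usp2 rose by 0.61 and Noct by 0.93, 2 of 13 where 0.738% were. With estradiol in ovariectomized females 0 of 13 passed in limma, where 0.632% of probes passed. With estradiol against DHT in ovariectomized females, 4 of 13 were lower and 0 higher: Per2 at -1.06, Noct at -0.80, Nr1d2 at -0.64 and Usp2 at -0.61, where 1.59% of probes were called lower. Against intact males, castration with placebo gave 2 of 13 higher, Bhlhe40 by 1.02 and Usp2 by 0.50, where 5.2% of probes were called higher. Per1, Per3, Hlf, Bhlhe41 and Wee1 passed in 0 comparisons.

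Nr1d1, a repressor that acts on Arntl through ROR elements, had an r of 0.05 with Arntl within groups. That ranked 5651, near the middle of the 12661 probes. Nr1d2, which acts through the same elements, had an r of -0.40 with Arntl within groups, for its more variable probe. On values as measured r was -0.10 for Nr1d1 and -0.73 for Nr1d2. Nr1d1 was higher by 1.16 ± 0.22 (SE) in ovariectomized females with placebo than in intact females (adjusted p = 0.0387). In that comparison Arntl differed by -1.17 without passing. In ovariectomized females with DHT, where Arntl was lower than in intact females by 2.09, Nr1d1 averaged -0.11 ± 0.35, against -0.78 ± 0.49 in intact females (SD, n = 5 each), and did not pass.

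**Figure D5:**
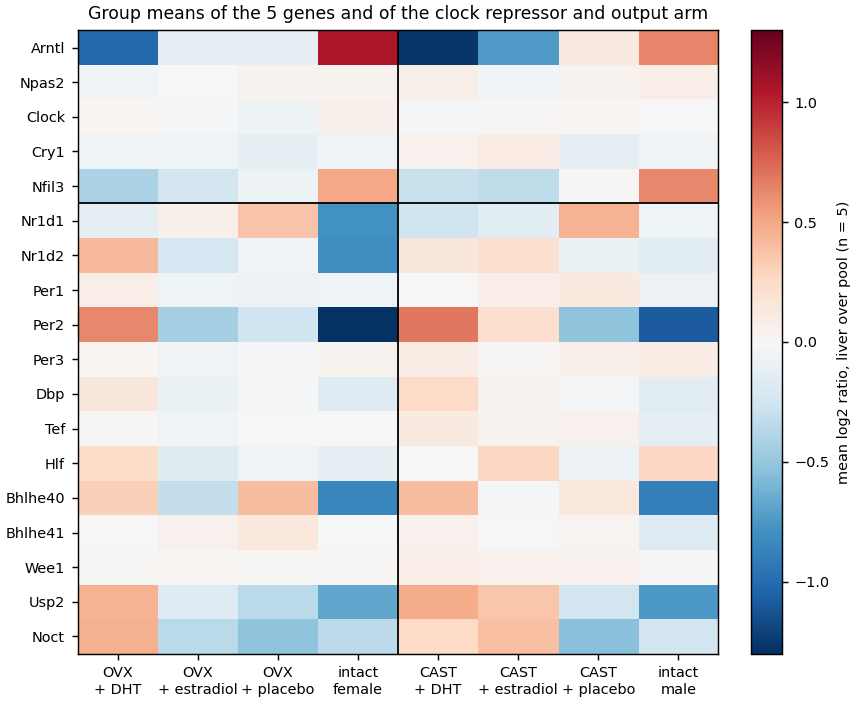
Mean log2 ratio to the pool (colour, n = 5 livers) of the 5 genes (upper block) and of 13 measured genes of the clock repressor and output arm (lower block) in the 8 groups, females left and males right. OVX is ovariectomized and CAST castrated. Arntl is lowest and Per2 and Usp2 highest in the DHT columns, with the reverse in intact mice, while Npas2, Clock, Per3 and Wee1 stay near 0.

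Of 12 regulators of the clock, such as kinases and ROR receptors, 9 were measured. After castration with placebo 2 of 9 were higher and 1 lower, where 12.1% of all probes passed. The higher ones were Nono, which encodes an RNA-binding partner of the PER proteins, by 0.42 ± 0.08 (SE, adjusted p = 0.000699) and the kinase gene Csnk1e by 0.38 ± 0.10 (SE, adjusted p = 0.0117). A further probe of Nono was called in no comparison. Rora, which encodes an activator acting on ROR elements, fell by 0.60 ± 0.17 (SE, adjusted p = 0.0185) with overlap of the groups, and by 0.71 ± 0.17 in castrated males with DHT against intact males (adjusted p = 0.00900). Against intact males, 2 of 9 regulators were lower with DHT, Rora and the kinase gene Gsk3b, and 0 higher, where 3.83% of probes were called lower. Further probes of Csnk2a1 and Timeless passed there while the probes that stood for these genes did not. In ovariectomized females with DHT, where Arntl differed most from intact mice, 0 of 9 regulators passed, in a comparison that 2.72% of all probes passed. The median difference of the regulators was 0.06, beside -0.02 over all probes.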

How the data were processed

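Liver RNA (Cy5) of each mouse was hybridised against a pooled liver RNA (Cy3), per the labels. The deposited table holds log10 ratios as the authors made them; background correction and normalization are not given in the sources used here. Values were multiplied by 3.3219 to give log2 ratios. Ratios stop at 2 in log10 units either way. No scanner file was used, so signal over background is unknown and the number of arrays limits precision.

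Probe symbols came from the platform annotation, and 12662 of 23574 probes were named in RefSeq. A gene with several probes was represented by the probe of largest SD. limma 3.58.1 in R 4.3.3 fitted 8 group means to all 40 arrays (lmFit, eBayes, 32 residual and 3.42 prior degrees of freedom), with Benjamini-Hochberg adjustment over all probes within each of 17 planned comparisons and 2 added after seeing the data, those of ovariectomized females with DHT and castrated males with estradiol against intact mice. Neighbours in the order of means were also compared after seeing the data. P-values are two-sided. Those of limma set group differences against the spread between single livers, with a residual SD shared by the 8 groups. Correlations used 100000 permutations within groups. The fit was tested on simulated data. No batch was given in the labels.

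Named genes are the 5 genes, fixed clock lists with the genes of smallest p as examples, and the 10 genes most like or unlike each member by r within groups. The members and lists were chosen with earlier results of these data known. List members without a named probe were not analysed here. Alternatives were quantile normalization, median centring, array weights, fits of the compared groups alone, a filter on SD, the mean over probes, and leaving out each animal.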

Additional observations from a re-analysis of the deposited data

Results flagged for a closer look

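Among 40 tests of a gene in a group of 5 livers, 1 liver stood apart from its group. Arntl in an ovariectomized female with placebo, animal 20, was at 0.73, with the nearest of the other 4 livers at -0.16, so that this gap made up 0.742 of the range of the group. Chance alone marks about 1 in 20 such groups. The same liver had the lowest Per2 of its group, at -1.34. Without it, the difference of Arntl between ovariectomized females with placebo and intact females was -1.38 with an adjusted p of 0.0148.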

How the results depend on the processing

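No result changed direction while called, and 136 of 2707 recomputed values changed sign without passing in either setting. Counts of members that passed moved as follows. For castration the count of 1 became 0 with quantile normalization and in a fit of the groups compared alone. For ovariectomy it was 0 and became 1 with array weights and with the SD filter. For estradiol in castrated males it was 0 and became 1 with array weights, and for DHT in ovariectomized females it became 1 with array weights, in a fit of those groups alone and with the SD filter. For estradiol against DHT in ovariectomized females the count of 1 became 0 with quantile normalization and in a fit of those groups alone. Against intact mice it was 2 and became 1 in a fit of the groups alone for ovariectomized females with estradiol, and 1 with quantile normalization for castrated males with DHT. The gonadectomy and DHT interactions had 0 and each had 1 with array weights. Of 10 member pairs 2 passed within groups, 1 on values as measured and 0 after quantile normalization. Leaving out each animal gave counts of 0 to 1 for castration, ovariectomy, estradiol in castrated males and estradiol against DHT in ovariectomized females, 0 to 2 for ovariectomized females with estradiol against intact females, and 0 to 3 for member pairs. It left the other counts as they were: 2 against intact mice in both DHT groups and in castrated males with estradiol, 1 for DHT in castrated males, 2 for the F over the groups, and 0 elsewhere. Where no cause is given here, the cause was not tested. No paired analysis was possible because each animal number occurs in 1 group.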

Other observations

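Of 12 genes of liver metabolism that the clock is known to time, 10 were measured, and those that passed went in both directions. In ovariectomized females with DHT against intact females, 3 of 10 were higher and 2 lower, where 2.72% of all probes passed. Upp2, a uridine phosphorylase, was higher by 2.26, Alas1, the first enzyme of heme synthesis, by 1.23 and Nampt, an enzyme of NAD synthesis, by 0.85, while Pdk4, a kinase that blocks pyruvate oxidation, was lower at -2.42 and Insig2, a brake on sterol synthesis, at -1.25. In castrated males with DHT against intact males, 2 of 10 were higher and 3 lower, where 6.32% of all probes passed. Rgs16, a regulator of G protein signalling, was higher by 2.32 and Upp2 by 1.82, while Elovl3, a fatty acid elongase with higher levels in males, stood at -2.48, Insig2 at -2.09 and Pdk4 at -0.92. A further probe of Upp2 had an adjusted p of 0.956 in the F over the groups.

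Within groups, Insig2 had an r of 0.53 with Arntl and rank 54 of 12661, near that of Nfil3, and Upp2 had an r of -0.51. For Nfil3 the r was 0.33 with Insig2 and -0.42 with Upp2. These are descriptions over 40 livers with no test.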
